A study of Mus musculus with 30 samples.

Results

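The libraries compared here are those of Ticam2-/- (KO) and wild-type (WT) mouse macrophages that received no ligand, 3 libraries of each genotype and 6 of the 30 libraries of the study. They were chosen by their labels, untreated KO against untreated WT, and every gene measured was compared. Of 32361 gene IDs in the deposited table, 15119 passed a filter on low counts and were tested. The cells were primary macrophages grown from whole bone marrow of Ticam2-/- or WT mice in medium with L929-conditioned supernatant as the source of M-CSF, the growth factor of macrophages, and the labels give the strain as C57BL/6J. Each library came from 1 animal, so the spread between libraries holds that between animals of a genotype together with that of library making and counting. In the rest of the study the same 2 genotypes received lipopolysaccharide (LPS) or lipoteichoic acid (LTA) for 2 or 6 h. The sources used here do not say how the Ticam2 allele was made or on which substrain, and the loss of Ticam2 and any other inherited difference between the 2 mouse lines cannot be told apart in any comparison of KO with WT cells. The sampled cells are whole cultures, in which fewer cells of a type and less RNA per cell cannot be told apart.

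Ticam2 encodes TRAM, the bridging adaptor that joins Toll-like receptor 4 (TLR4), once the receptor has been taken into endosomes, to the adaptor TRIF. TRIF then drives the kinase TBK1 and the transcription factor IRF3, which turn on interferon beta and chemokines such as Cxcl10, while the adaptor MyD88 carries the NF-kB arm from the cell surface. Macrophages that have met no added ligand still transcribe interferon-stimulated and inflammatory genes at a low level, and this low tone sets how ready the cells are to respond.

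The 6 libraries held 10641070 to 12389352 counts each, so that a level of 1 CPM (the count scaled to a fixed library size) stood for about 10 counts or more. Levels are given as CPM scaled by the composition factors of edgeR, and differences as log2 fold changes of KO over WT with their standard error (SE). A gene is called when its p from the quasi-likelihood test of edgeR, adjusted over all genes tested by the Benjamini-Hochberg method, is under 0.05. Pairs of libraries of the same genotype differed with an SD of 0.266 to 0.292 over genes (log2), and pairs of unlike genotype with an SD of 0.335 to 0.348. WT replicate 1 stood somewhat apart from the other WT libraries: the counts of WT replicates 1 and 2 gave a chi-square of 5.19 per degree of freedom, 1 and 3 gave 6.25, and 2 and 3 gave 1.53, against 1.222 to 1.751 among the KO libraries. Its mitochondrial share of counts was 3.13%, against 3.83% and 3.92% in the other WT libraries and 3.35% to 3.49% in the KO libraries. Without that library 1615 genes were called, and leaving out any 1 of the 6 libraries gave 1550 to 1633. A chi-square of 1 per degree of freedom would be counting noise alone. The KO pairs and WT replicates 2 and 3 lay not far above it. The macrophage genes Csf1r, Spi1, Adgre1, Cd68, Itgam, Fcgr1 and Mertk were all expressed in all 6 libraries, with Csf1r at 796 CPM or more in each. Of markers of other cells, Cd3e of T cells, Ly6g of neutrophils and Flt3 of dendritic cells were each at 0.154 CPM or less as a group mean. Whole lists held some RNA. The osteoclast markers summed to 114 to 124 CPM in KO and 116 to 135 CPM in WT libraries. The endothelial markers summed to 24.0 to 25.8 CPM in KO and 25.7 to 27.8 CPM in WT libraries. The fibroblast and stromal markers summed to 9.30 to 10.2 CPM in KO and 11.6 to 12.6 CPM in WT libraries. Of 8 such markers tested, 7 were below 0 (log2, KO over WT) and none was called. The part of stromal cells in other results was not tested. The neutrophil markers summed to 14.1 to 17.4 CPM in KO and 17.5 to 19.6 CPM in WT libraries, and the megakaryocyte markers to 12.8 to 13.3 CPM in KO and 10.3 to 12.97 CPM in WT libraries. Red-cell transcripts were present in both genotypes, the 11 erythroid markers summing to 5019 to 5386 CPM in KO and 5375 to 5820 CPM in WT libraries. All 7 erythroid markers tested were below 0 (log2, KO over WT), and 1 was called, Slc4a1, the anion exchanger of red cells, at -1.15 ± 0.35; their part in other results was not tested.

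Ticam2 itself checked the labels. Ticam2 had 0.807, 0.713 and 0.355 CPM in KO cells, against 9.28, 11.1 and 9.97 CPM in WT cells, which is 10, 9 and 5 counts in KO and 129.5, 145 and 120.5 counts in WT libraries. The groups did not overlap, every KO library lying far under every WT library. The log2 fold change was -4.01 ± 0.21, with an adjusted p of 6.2e-22 by edgeR's quasi-likelihood test. The gene lies at chr18:46557291-46574533 (GRCm38, minus strand) and overlaps Tmed7 on that strand, so that reads of the overlap could have been assigned to either gene, and the exons lost in the KO allele are not given in what was read here. The level of Tmed7 was 148, 155 and 159 CPM in the KO libraries and 174, 177 and 179 CPM in the WT libraries. Tmed7, a cargo receptor of the early secretory pathway, was lower by much less, -0.19 ± 0.05.

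Resting KO macrophages had lower RNA of interferon-stimulated genes, chemokines, NF-kB feedback genes, antimicrobial enzymes and MHC class II, and higher RNA of mitotic genes. Most single differences were small. Of 15119 genes tested, 2032 (13.4%) were called, 902 (5.97%) higher and 1130 (7.47%) lower in KO cells, and the median size of a called difference was 0.31 on the log2 scale. Scaled by total counts alone, the balance turned, with 1053 genes called higher and 953 lower. At 2-fold or more, 28 genes were called higher and 96 lower, together 124 or 0.82% of those tested. At 4-fold or more, 5 were higher and 13 lower. The 3 KO and the 3 WT libraries did not overlap for 4652 genes, 30.8% of those tested. On simulated counts with 3 libraries of each genotype, 96% to 100% of genes changed 2-fold or 4-fold were recovered. Only genes above a limit on their mean untreated count were changed there, and every gene was given the same spread between libraries. Recovery of genes with few counts was not tested.

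**Figure D1:**
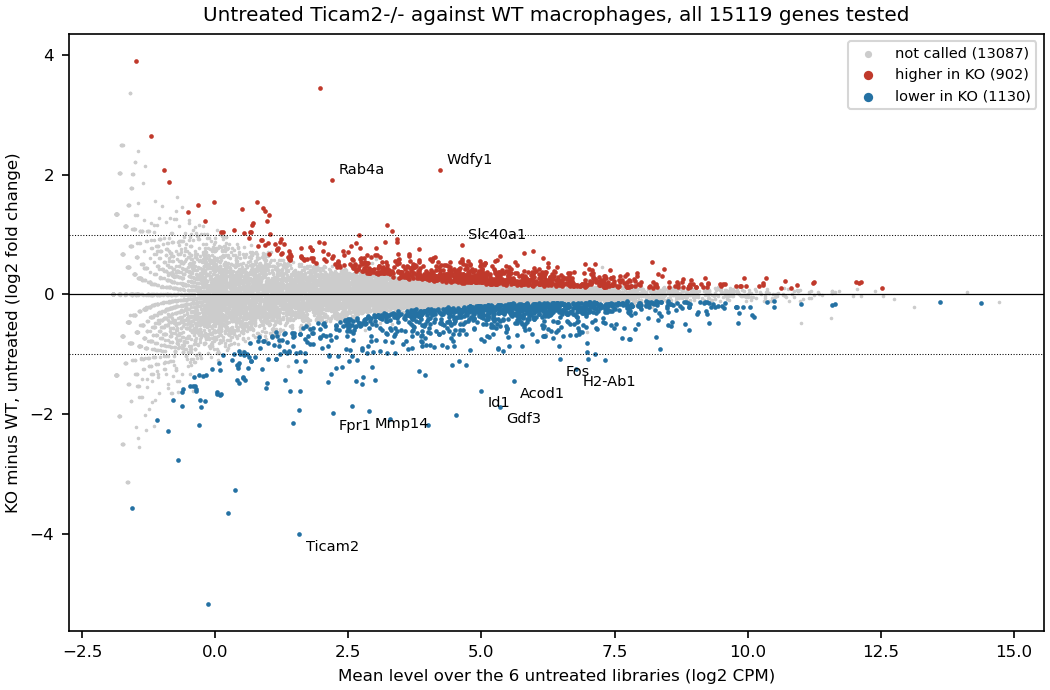
Each point is 1 of the 15119 genes tested, with its mean level over the 6 untreated libraries (log2 CPM) on the horizontal axis and the KO minus WT difference (log2 fold change) on the vertical axis; dotted lines mark 2-fold. Of the called genes, 902 lie above 0 (higher in KO) and 1130 below it (with total counts alone as scaling, 1053 and 953), and beyond 2-fold the lower ones outnumber the higher, 96 to 28.

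The largest rises were few. Among called genes with a mean level of at least 2 on the log2 CPM scale and no overlap between the groups and with an established symbol, Wdfy1 and Rab4a led. In KO cells Wdfy1 stood at 35.6, 37.7 and 39.6 CPM, and in WT cells at 8.42, 9.04 and 9.48 CPM. Rab4a had 8.63, 7.92 and 8.59 CPM in KO cells, against 2.71, 2.15 and 1.75 CPM in WT cells. All 3 KO libraries lay above all 3 WT libraries for both genes, as the choice of genes required. The log2 fold changes were 2.07 ± 0.08 for Wdfy1 and 1.91 ± 0.15 for Rab4a. Wdfy1 encodes an endosomal protein with WD repeats and a FYVE domain, and Rab4a a small GTPase of endosome recycling. Next came Nnt, the mitochondrial transhydrogenase, which the annotation holds under 2 overlapping IDs on chromosome 13. Summed over both IDs, Nnt had 28.6, 26.1 and 28.1 CPM in KO cells and 13.1, 12.6 and 12.6 CPM in WT cells. The log2 fold changes were 1.16 ± 0.10 and 1.06 ± 0.10 for the 2 IDs, and how reads were split between them is uncertain. The groups did not overlap, which the choice of genes also required.

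Nnt carries a well-known deletion in the C57BL/6J substrain that other C57BL/6 substrains lack, and it leads a list of 9 genes whose sequence or RNA is known to differ between substrains. Of the 8 IDs of that list that were tested, 3 were called higher (both Nnt IDs and Wdfy1) and 1 lower, with a median log2 fold change of 0.07, against -0.00 over all genes tested. The level of Ide was 41.2, 41.02 and 42.8 CPM in the KO libraries and 62.7, 55.5 and 56.6 CPM in the WT libraries. Ide, the insulin-degrading enzyme, was lower by -0.48 ± 0.06, and its groups did not overlap. Cyfip2, a cytoskeletal regulator, was at -0.12 ± 0.06, Snap29, a membrane fusion protein, at 0.03 ± 0.08, and Entpd4 and Entpd4b, a pair of near-identical copies with the same deposited counts, at 0.07 ± 0.12; none of these was called. Which substrain each line came from was not tested, and the genotype and the line cannot be told apart in these values.

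Other rises with named roles were smaller. In KO cells Slc40a1 stood at 30.7, 33.6 and 33.6 CPM, and in WT cells at 19.3, 18.01 and 18.2 CPM. Cdkn1c had 12.5, 14.7 and 15.6 CPM in KO cells, against 8.13, 7.05 and 7.31 CPM in WT cells. Slc40a1 encodes ferroportin, which exports iron, and Cdkn1c an inhibitor of cyclin-dependent kinases. Both were higher in every KO library than in any WT library, as the choice of the largest rises required. Their log2 fold changes were 0.82 ± 0.07 and 0.93 ± 0.11. The level of Tox2 was 10.8, 8.08 and 7.81 CPM in the KO libraries and 4.85, 3.91 and 4.57 CPM in the WT libraries. In KO cells Kif18b stood at 9.03, 6.97 and 8.24 CPM, and in WT cells at 4.78, 4.45 and 3.99 CPM. Tox2, an HMG-box transcription factor, rose by 0.99 ± 0.15, and Kif18b, a mitotic kinesin, by 0.87 ± 0.13. Arl15, a small GTPase, rose by 0.87 ± 0.10, Rragd, a GTPase that signals amino acids to mTORC1, by 0.78 ± 0.11, Jup, the junction protein plakoglobin, by 0.78 ± 0.15, and Lsr, the lipolysis-stimulated lipoprotein receptor, by 0.76 ± 0.10. Epdr1 and Fam214a completed the set of 15 IDs, at 0.85 ± 0.16 and 0.81 ± 0.16. Ighm, the immunoglobulin heavy chain of B cells, was also among them. Ighm had 11.5, 12.9 and 11.4 CPM in KO cells, against 6.21, 6.59 and 6.73 CPM in WT cells. It was 1 of 3 B-cell markers tested and the 1 called (0.87 ± 0.11); the 10 B-cell markers summed to 15.3 to 18.1 CPM in KO and 9.56 to 10.1 CPM in WT libraries, and their part in other results was not tested.

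The largest falls were taken by the same rule as the largest rises. That rule asked for an established symbol, a mean log2 CPM of at least 2 and no overlap between the groups. Among such genes, the largest falls included secreted, receptor and signalling genes. The level of Gdf3 was 21.6, 19.96 and 21.8 CPM in the KO libraries and 75.9, 76.8 and 79.5 CPM in the WT libraries. In KO cells Mmp14 stood at 4.36, 2.85 and 3.62 CPM, and in WT cells at 13.1, 13.8 and 14.96 CPM. Id1 had 17.3, 19.01 and 18.04 CPM in KO cells, against 56.5, 51.4 and 57.7 CPM in WT cells. That no KO library reached the lowest WT library for any of the 3 genes was required by the rule. Gdf3, a growth factor of the TGF-beta family, fell by 1.87 ± 0.06 on the log2 scale, Mmp14, a membrane-bound metalloproteinase, by 1.94 ± 0.11, and Id1, an inhibitor of DNA-binding helix-loop-helix factors and a target of BMP signals, by 1.60 ± 0.07. Smad6, an inhibitor of BMP signals, fell by 1.218 ± 0.16. Thbs1, the matrix protein thrombospondin, fell by 1.499 ± 0.26, Flrt3, a membrane adhesion protein, by 1.38 ± 0.11, Dusp5, a phosphatase of ERK kinases, by 1.44 ± 0.15, and Cd207, the lectin langerin, by 1.28 ± 0.09. Fpr1 and Fpr2 sense formyl peptides of bacteria. The level of Fpr1 was 2.097, 1.82 and 2.56 CPM in the KO libraries and 8.92, 8.58 and 8.39 CPM in the WT libraries. In KO cells Fpr2 stood at 1.86, 2.53 and 2.98 CPM, and in WT cells at 6.78, 7.51 and 6.32 CPM. They fell by 1.98 ± 0.13 and 1.47 ± 0.19, and the rule again required no overlap.

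**Figure D2:**
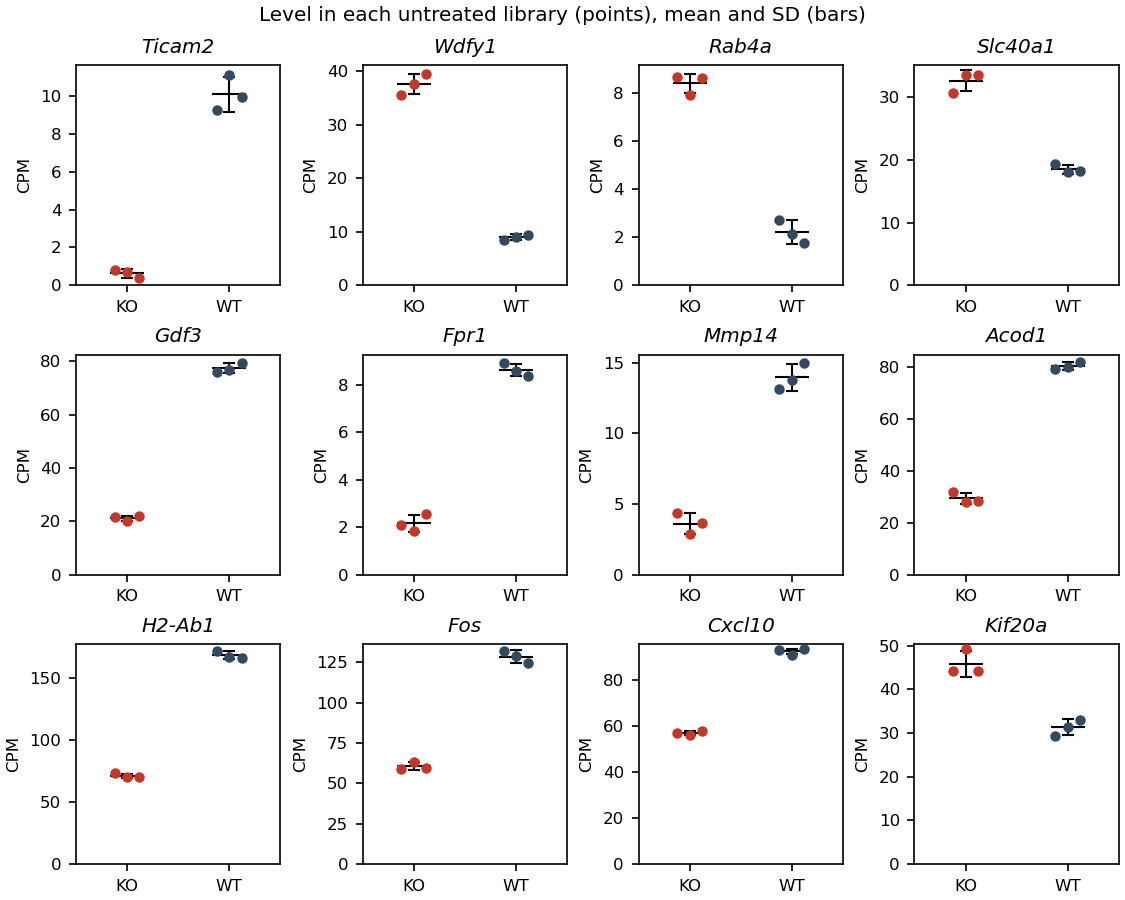
Level (CPM) of 12 genes in each untreated library, KO on the left and WT on the right of each panel, with the mean and SD (n = 3 each) as bars. Ticam2, Gdf3, Fpr1, Mmp14, Acod1, H2-Ab1, Fos and Cxcl10 are lower in all 3 KO libraries than in any WT library, and Wdfy1, Rab4a, Slc40a1 and Kif20a are higher.

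Most listed genes that the TRIF arm turns on were lower at rest. Of 14 primary targets of IRF3, 11 were called lower and 1 higher in KO cells, with a median log2 fold change of -0.65. A pair of promoters of this group is shown because they hold the motif of interferon-regulated genes (GAAA, any 2 bases, GAAA), whose matches on either strand are in capitals. The windows run from 250 bases before to 50 after the start site, 5′ to 3′ on the gene's strand (RefSeq, GRCm38.p6).
Isg15, chr4:156200769-156201068, minus strand: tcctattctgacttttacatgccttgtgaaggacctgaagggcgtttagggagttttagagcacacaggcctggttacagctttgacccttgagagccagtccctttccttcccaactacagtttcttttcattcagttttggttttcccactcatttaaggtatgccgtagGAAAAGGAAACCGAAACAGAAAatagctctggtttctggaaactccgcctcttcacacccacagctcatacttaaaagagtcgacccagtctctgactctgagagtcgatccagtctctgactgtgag
Ifit1, chr19:34640639-34640938, plus strand: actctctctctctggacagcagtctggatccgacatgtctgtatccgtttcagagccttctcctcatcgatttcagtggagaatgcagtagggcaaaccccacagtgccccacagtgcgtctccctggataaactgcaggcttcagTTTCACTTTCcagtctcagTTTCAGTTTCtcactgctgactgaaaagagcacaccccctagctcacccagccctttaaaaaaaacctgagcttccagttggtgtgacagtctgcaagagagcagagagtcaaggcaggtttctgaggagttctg
The matches in Isg15 overlap each other, 3 in 1 run, and Ifit1 holds 2 apart. Isg15 had 95.5, 93.2 and 97.2 CPM in KO cells, against 163, 171 and 169 CPM in WT cells. The level of Ifit1 was 53.2, 58.04 and 56.5 CPM in the KO libraries and 88.5, 88.1 and 94.3 CPM in the WT libraries. In KO cells Cxcl10 stood at 57.1, 56.3 and 58.02 CPM, and in WT cells at 93.2, 91.2 and 93.5 CPM. Isg15 is a ubiquitin-like antiviral protein, Ifit1 a binder of viral RNA and Cxcl10 a chemokine for T cells. In all 3 genes the KO libraries lay together below the WT libraries, with log2 fold changes of -0.81 ± 0.05, -0.69 ± 0.05 and -0.70 ± 0.04. Ifit2 and Ifit3, of the Ifit1 family, were at -0.60 ± 0.07 and -0.59 ± 0.05, and Rsad2, the antiviral enzyme viperin, at -0.56 ± 0.05. Ifnb1, interferon beta itself, had 0 to 0.142 CPM in KO and 0.166 to 0.307 CPM in WT libraries and was not called. Ccl4, a chemokine, was the member called higher (0.21 ± 0.04).

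The wider interferon response moved the same way. Of 67 interferon-stimulated genes, 51 were called lower and none higher, with a median of -0.31, and of 15 interferon-inducible GTPases tested, 10 were called lower and none higher, with a median of -0.40. Ms4a4c had 17.5, 15.996 and 14.6 CPM in KO cells, against 33.8, 37.4 and 32.4 CPM in WT cells. The level of Ifi205 was 25.1, 25.2 and 24.7 CPM in the KO libraries and 45.2, 40.01 and 43.3 CPM in the WT libraries. In KO cells Gbp2 stood at 11.3, 9.66 and 11.6 CPM, and in WT cells at 19.7, 17.2 and 19.1 CPM. Ms4a4c, a membrane protein, was at -1.11 ± 0.08, Ifi205, a member of the PYHIN family of DNA sensors, at -0.78 ± 0.06 and Gbp2, a guanylate-binding protein of antimicrobial defence, at -0.78 ± 0.09; none of the 3 overlapped between genotypes. The transcription factors of the pathway were lower by less, Irf7 at -0.42 ± 0.05 and Stat2 at -0.31 ± 0.06, and Irf9 (-0.06 ± 0.05) was not called. Tgtp1 and Tgtp2, near-identical GTPase copies among which reads could be split, were at -0.65 ± 0.10 and -0.61 ± 0.09. Of the genes of these 3 lists that were called lower, 56 had a promoter window, and 33 of them (58.9%) held that motif. Over all genes tested with a window, 4.18% held it, as did 10.1% of all genes called lower and 4.37% of those called higher. A match is a run of letters and not a measured site. The lists hold genes of the interferon response, and the share among their members not called was not computed.

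Inflammatory genes were lower more unevenly. Of 30 antimicrobial and secondary inflammatory genes, 25 were called lower and none higher, the median being -0.70. Acod1 had 31.9, 28.2 and 28.3 CPM in KO cells, against 79.1, 80.01 and 82.03 CPM in WT cells. The level of Clec4e was 88.3, 94.9 and 87.9 CPM in the KO libraries and 177, 173 and 178 CPM in the WT libraries. In KO cells Sod2 stood at 147, 164 and 153 CPM, and in WT cells at 252, 260.4 and 258 CPM. Acod1 makes itaconate, Clec4e is the lectin Mincle and Sod2 the mitochondrial superoxide dismutase. The log2 fold changes were -1.45 ± 0.05, -0.96 ± 0.05 and -0.73 ± 0.05, with all KO libraries below all WT libraries. Slc7a11, the cystine transporter, was at -1.23 ± 0.13, Ptgs2, the inducible cyclooxygenase, at -0.85 ± 0.08 and Nos2, the inducible nitric oxide synthase, at -0.72 ± 0.25. Lyz2, a lysozyme of macrophages, differed by -0.14 ± 0.04. Gsdmd, Pla2g4a, Ncf1, Camp and Cp were not called.

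Of 26 NF-kB subunits and feedback inhibitors, 17 were called lower and none higher, with a median of -0.33. The inhibitors led, and the subunits Rela (-0.05 ± 0.05), Rel (-0.04 ± 0.07) and Nfkb1 (-0.13 ± 0.05) were not called. Nfkbia, the IkB-alpha inhibitor that NF-kB itself induces, is shown with a match to the NF-kB site (GGGAA followed by TTTCC, either strand) in capitals.
Nfkbia, chr12:55492598-55492897, minus strand: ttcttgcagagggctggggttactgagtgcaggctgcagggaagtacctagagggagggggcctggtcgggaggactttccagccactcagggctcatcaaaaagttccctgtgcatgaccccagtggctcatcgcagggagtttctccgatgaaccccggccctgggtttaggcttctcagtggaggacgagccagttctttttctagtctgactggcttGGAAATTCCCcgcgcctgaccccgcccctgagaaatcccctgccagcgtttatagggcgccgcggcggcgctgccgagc
Nfkbia had 394, 399 and 374 CPM in KO cells, against 602, 572 and 596 CPM in WT cells. The level of Pde4b was 14.3, 16.2 and 14.2 CPM in the KO libraries and 26.9, 27.1 and 28.3 CPM in the WT libraries. In KO cells Tnip3 stood at 94.4, 94.4 and 93.5 CPM, and in WT cells at 133, 129 and 126 CPM. Pde4b degrades cyclic AMP and Tnip3 is a partner of the ubiquitin editor A20. The groups were apart in all 3, at -0.60 ± 0.04, -0.88 ± 0.07 and -0.46 ± 0.04. Tnfaip3, which encodes A20, was at -0.60 ± 0.07, Socs3, an inhibitor of cytokine signals, at -0.98 ± 0.09 and Dusp1, a MAP kinase phosphatase, at -0.58 ± 0.05. The run GGGAA followed by TTTCC was found in 0.174% of the promoters of all genes tested. Of the 16 promoters of this list's lower genes, 1 held it, that of Nfkbia. The looser form planned first was GGG, any 5 bases, CC. It was in 71.7% of all promoters, in 69.9% of those of genes called lower and in 87.5% of these 16.

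Chemokines were largely lower, and cytokines in part. Of 24 chemokine and receptor genes tested, 18 were called lower and 3 higher, with a median of -0.47. Ccl2 had 171, 169 and 172 CPM in KO cells, against 286, 276 and 294 CPM in WT cells. The level of Cxcl2 was 67.7, 64.3 and 62.5 CPM in the KO libraries and 109, 122 and 122 CPM in the WT libraries. In KO cells Ccr1 stood at 4.76, 4.36 and 5.04 CPM, and in WT cells at 11.8, 14.4 and 12.2 CPM. Ccl2 recruits monocytes, Cxcl2 neutrophils, and Ccr1 is a receptor for inflammatory CC chemokines. They were at -0.74 ± 0.05, -0.86 ± 0.05 and -1.44 ± 0.12, each without overlap. Ccl7, another monocyte chemokine, was at -0.86 ± 0.06. The members called higher were Ccl3 (0.24 ± 0.04), Cxcr4 (0.26 ± 0.05) and Cxcl5, which had 0 counts in all WT libraries and 0.0807 to 0.317 CPM in KO libraries, a level for which no fold is given. Of 25 inflammatory cytokines, 7 were called lower and none higher, with a median of -0.21. Tnf had 47.5, 45.4 and 44.4 CPM in KO cells, against 58.7, 58.1 and 54.9 CPM in WT cells. The level of Il1b was 47.8, 46.2 and 43.3 CPM in the KO libraries and 66.6, 65.99 and 67.2 CPM in the WT libraries. Tnf and Il1b, the inflammatory cytokines TNF and IL-1 beta, were at -0.32 ± 0.05 and -0.54 ± 0.05, Il1rn, the antagonist of the IL-1 receptor, at -0.56 ± 0.06, and Tnfsf9, the ligand of 4-1BB, at -0.58 ± 0.07. Il6 (-0.21 ± 0.11), Il10 (-0.41 ± 0.22) and Il12b (0.03 ± 0.41) were not called.

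**Figure D3:**
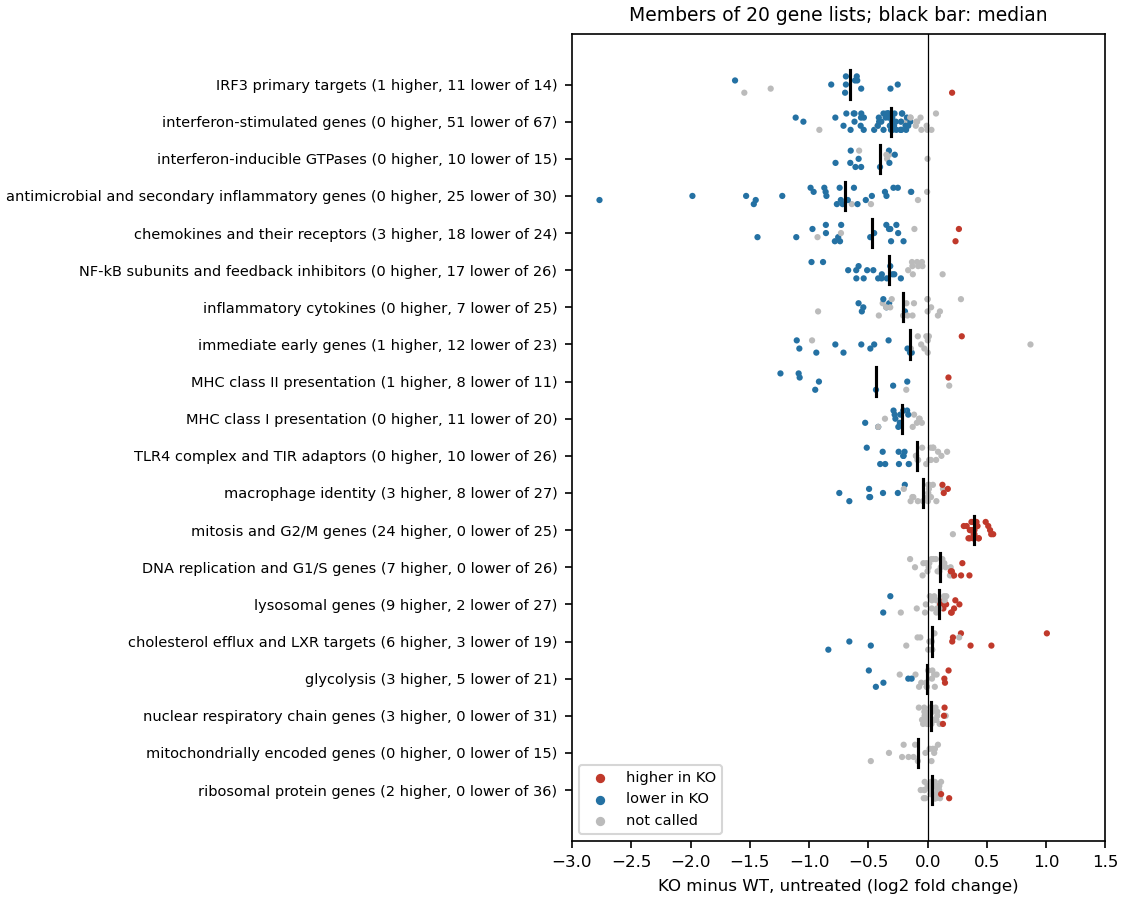
KO minus WT difference (log2 fold change) of the tested members of 20 gene lists, 1 point a gene, red where called higher, blue where called lower and grey where not called, with the median as a black bar. The interferon, chemokine, NF-kB, antimicrobial and MHC class II lists lie left of 0, the mitosis list lies right of 0, and the mitochondrial and ribosomal lists lie at it; Cxcl5, with 0 counts in all WT libraries, is beyond the axis.

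MHC class II genes, which present peptides to CD4+ T cells, included H2-Ab1, 1 of the 15 largest falls among genes with an established symbol. Of 11 genes of class II presentation, 8 were called lower and 1 higher, with a median of -0.44. Promoters of 2 members are shown because they hold the Y box, CTGATTGG (in capitals), of class II genes.
H2-Aa, chr17:34287774-34288073, minus strand: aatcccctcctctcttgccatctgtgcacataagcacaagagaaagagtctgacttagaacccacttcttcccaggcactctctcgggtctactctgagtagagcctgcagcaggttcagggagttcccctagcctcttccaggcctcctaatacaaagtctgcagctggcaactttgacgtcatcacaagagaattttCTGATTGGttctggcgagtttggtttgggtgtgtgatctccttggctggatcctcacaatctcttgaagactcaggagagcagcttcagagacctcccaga
H2-Eb1, chr17:34305617-34305916, plus strand: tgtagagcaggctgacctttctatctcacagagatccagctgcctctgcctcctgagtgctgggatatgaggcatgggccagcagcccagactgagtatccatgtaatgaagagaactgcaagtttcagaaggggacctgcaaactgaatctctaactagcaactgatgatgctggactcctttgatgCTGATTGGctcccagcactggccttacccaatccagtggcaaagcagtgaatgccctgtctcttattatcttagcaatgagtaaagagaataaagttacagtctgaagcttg
In KO cells H2-Aa stood at 108, 111 and 110.3 CPM, and in WT cells at 236, 227 and 237 CPM. H2-Eb1 had 92.7, 88.5 and 83.7 CPM in KO cells, against 190.5, 186 and 183 CPM in WT cells. The level of H2-Ab1 was 73.2, 70.1 and 70.2 CPM in the KO libraries and 172, 167 and 166 CPM in the WT libraries. Every KO library lay far below every WT library, and the libraries of each genotype lay close together. The log2 fold changes were -1.09 ± 0.05, -1.08 ± 0.05 and -1.24 ± 0.05. The invariant chain Cd74, which guides class II molecules through the cell, was at -0.92 ± 0.04, and Ciita, the master activator of class II transcription, at -0.95 ± 0.24. H2-DMa and H2-DMb1, which load peptides, differed by less, -0.29 ± 0.09 and -0.44 ± 0.07. Ifi30, a lysosomal thiol reductase, was the member called higher (0.18 ± 0.05). Of the 5 lower genes with a promoter window, 2 held the Y box, against 6.75% of all genes tested. The Y box was not among the motifs planned first. MHC class I genes were lower by less, with 11 of 20 called lower, none higher and a median of -0.22; H2-Q7, a non-classical class I gene with close copies, was at -0.53 ± 0.08, and Tap2, of the peptide transporter, at -0.42 ± 0.05. The dendritic-cell markers, which could bring class II RNA, summed to 2.13 to 3.64 CPM in KO and 3.08 to 3.76 CPM in WT libraries, and among them Ccr7 was called lower (-1.63 ± 0.37); their part in the class II result was not tested.

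Genes that stimuli switch on within minutes were lower in part. Of 23 immediate early genes, 12 were called lower and 1 higher, with a median of -0.15. In KO cells Fos stood at 59.2, 63.3 and 59.8 CPM, and in WT cells at 132, 129 and 124 CPM. Myc had 15.3, 16.8 and 17.7 CPM in KO cells, against 30.3, 27.5 and 27.7 CPM in WT cells. Fos, a subunit of AP-1, was at -1.08 ± 0.05 and the growth regulator Myc at -0.78 ± 0.08, with no overlap. Nr4a1, a nuclear receptor, was at -1.10 ± 0.22 and Junb, another AP-1 subunit, at -0.56 ± 0.05. Egr1 (-0.01 ± 0.15) and Jund (-0.06 ± 0.05) were not called, and Atf3, a stress-induced factor, was the member called higher (0.29 ± 0.05).

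Genes of the receptor complex differed by less. Of 26 genes of the TLR4 complex, other Toll-like receptors and their adaptors, 10 were called lower and none higher, with a median of -0.09. The level of Tlr4 was 77.6, 71.8 and 79.5 CPM in the KO libraries and 76.2, 79.1 and 71.5 CPM in the WT libraries. In KO cells Ticam1 stood at 17.6, 17.5 and 17.6 CPM, and in WT cells at 17.8, 19.9 and 17.95 CPM. The libraries overlapped for Tlr4, and neither Tlr4 (0.01 ± 0.05) nor Ticam1, which encodes TRIF (-0.08 ± 0.09), was called, nor were Ly96, the TLR4 co-receptor MD-2, Tirap, Tbk1 and Irf3. Tlr2, the receptor for bacterial lipopeptides and LTA, was lower. Tlr2 had 60.8, 59.2 and 55.3 CPM in KO cells, against 83.6, 86.99 and 79.4 CPM in WT cells. It was at -0.51 ± 0.05 without overlap, and its partner Tlr1 was at -0.40 ± 0.08. The kinases Ikbke and Irak2 were at -0.38 ± 0.07 and -0.36 ± 0.06, and the co-receptor Cd14 at -0.20 ± 0.04. Myd88 (-0.21 ± 0.05), Traf3 (-0.24 ± 0.08) and Irak1 (-0.16 ± 0.05) completed the lower members with Ly86 and Tmed7; the calls of Traf3 and Irak1 were each lost in 7 of 13 other settings.

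Macrophage identity genes did not move as a group. Of 27, 8 were called lower and 3 higher, with a median of -0.04; Csf1r, the receptor for M-CSF, was at 0.00 ± 0.04. The level of Cebpb was 379, 388 and 371 CPM in the KO libraries and 538, 524 and 541 CPM in the WT libraries. The transcription factor Cebpb was lower, at -0.49 ± 0.04 and with no overlap, as was the inhibitory Fc receptor Fcgr2b (-0.75 ± 0.06). Cd68, Lgmn and Trem2 were the 3 called higher, at 0.14 ± 0.04, 0.17 ± 0.04 and 0.12 ± 0.04. Among 17 genes of alternative activation tested, 7 were called lower and 1 higher, with a median of -0.04, and the higher one was Cd36, a scavenger receptor for oxidised lipid. Cd36 had 339, 355 and 368 CPM in KO cells, against 241, 244 and 241 CPM in WT cells. It was at 0.55 ± 0.04, and its groups did not overlap. Scavenger and complement genes gave 6 lower and 2 higher of 23, with C3, the central complement component, at -0.77 ± 0.05 and Msr1, a scavenger receptor, at -0.52 ± 0.04, against Scarb1 at 0.32 ± 0.05 and Gas6, a bridge to dying cells, at 0.34 ± 0.04. The median of the scavenger and complement genes was -0.05. Over all genes tested, 5.97% were called higher and 7.47% lower.

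Genes of mitosis were higher almost throughout. Of 25 genes of mitosis and G2/M, 24 were called higher and none lower, with a median of 0.39; Bub1 (0.21 ± 0.09) was the 1 not called. The promoter of Cdc20, an activator of the anaphase-promoting complex, is shown with the motif TTTGAA of cell cycle genes in capitals.
Cdc20, chr4:118437294-118437593, minus strand: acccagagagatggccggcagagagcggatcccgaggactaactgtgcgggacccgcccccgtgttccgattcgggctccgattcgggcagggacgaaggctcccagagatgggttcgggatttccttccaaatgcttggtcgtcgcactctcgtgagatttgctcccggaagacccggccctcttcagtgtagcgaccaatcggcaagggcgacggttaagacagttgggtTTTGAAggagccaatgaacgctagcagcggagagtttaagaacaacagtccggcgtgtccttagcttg
The level of Cdc20 was 66.2, 64.3 and 67.5 CPM in the KO libraries and 52.4, 50.1 and 51.03 CPM in the WT libraries. In KO cells Kif20a stood at 44.3, 49.3 and 44.1 CPM, and in WT cells at 29.4, 31.5 and 33.1 CPM. Bub1b had 38.9, 42.5 and 38.8 CPM in KO cells, against 27.6, 28.2 and 27.6 CPM in WT cells. Kif20a is a kinesin of cytokinesis and Bub1b a kinase of the spindle checkpoint. No KO library fell to the WT range for any of them, and the log2 fold changes were 0.37 ± 0.05, 0.55 ± 0.06 and 0.53 ± 0.07. Top2a, the topoisomerase of mitotic chromosomes, was at 0.41 ± 0.05, Birc5, the protein survivin, at 0.39 ± 0.05 and Mki67, the proliferation marker Ki-67, at 0.38 ± 0.07. Summed over the list, the level was 1342 to 1377 CPM in KO and 1027 to 1048 CPM in WT libraries. Of genes of DNA replication and G1/S, 7 of 26 were called higher and none lower, with a median of 0.10; Rrm2, of the enzyme that makes deoxynucleotides, was at 0.28 ± 0.04, Mcm5, of the replicative helicase, at 0.22 ± 0.05, and Pcna (0.10 ± 0.04) was not called. Of 20 mitosis genes called higher with a promoter window, 16 (80%) held TTTGAA, against 14.6% of all genes tested, 22.01% of all genes called higher and 16.2% of those called lower. The motif was chosen with these values known.

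Organelle and metabolic genes changed by little in size, though some lists held more calls than all genes did. Of all genes tested, 5.97% were called higher and 7.47% lower. The lysosomal, iron and cholesterol efflux lists had 33.3%, 35.3% and 31.6% called higher, and 7.41%, 17.6% and 15.8% called lower. The glycolysis list had 14.3% called higher and 23.8% lower. Of 27 lysosomal genes, 9 were called higher and 2 lower, with a median of 0.10; Lamp1 had 1069.8, 1070.5 and 1086 CPM in KO cells, against 886, 896 and 897 CPM in WT cells. Lamp1, a lysosomal membrane protein, was at 0.27 ± 0.04 without overlap, while the proteases Ctsl and Ctsh were the 2 lower ones, at -0.37 ± 0.04 and -0.31 ± 0.05. Of 17 genes of iron and metal handling tested, 6 were called higher and 3 lower, with a median of 0.07; beside Slc40a1, the metallothioneins Mt1 and Mt2 were at 0.26 ± 0.04 and 0.36 ± 0.07, and the importer Slc39a14 at -0.50 ± 0.09. Of 19 genes of cholesterol efflux and LXR targets tested, 6 were called higher and 3 lower, with a median of 0.04. In KO cells Scd1 stood at 2.18, 3.33 and 2.13 CPM, and in WT cells at 1.36, 1.15 and 1.247 CPM. Nr1h3 had 10.8, 12.8 and 12.6 CPM in KO cells, against 20.8, 22.8 and 21.2 CPM in WT cells. Scd1, a fatty acid desaturase, was at 1.01 ± 0.23 and Nr1h3, which encodes the receptor LXR-alpha, at -0.84 ± 0.09, while Apoe, the lipid carrier, was at -0.48 ± 0.04. Glycolysis gave 3 higher and 5 lower of 21 IDs, with a median of -0.01, the glucose transporter Slc2a1 being at -0.50 ± 0.06.

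The counts of the next lists stand beside 5.97% called higher and 7.47% called lower over all genes tested. Redox genes gave 3 higher and 4 lower of 26, with a median of 0.01. The level of Hmox1 was 170.3, 170.3 and 163 CPM in the KO libraries and 267, 282 and 296 CPM in the WT libraries. Hmox1, which degrades haem, was lower in every KO library, at -0.74 ± 0.04, and Cat, catalase, was higher, at 0.30 ± 0.04. Cholesterol synthesis gave 2 higher and 2 lower of 24 and the unfolded protein and heat shock response none higher and 3 lower of 21, with medians of -0.01 and -0.06. Metalloproteinase and matrix genes gave 1 higher and 9 lower of 27, with a median of -0.13, Mmp14 and Thbs1 first. Co-stimulatory genes gave none higher and 4 lower of 15, with a median of -0.08: Cd86 at -0.51 ± 0.13, Icam1 at -0.41 ± 0.05, Cd274 at -0.34 ± 0.11 and Cd40 at -0.30 ± 0.09, of which Cd40 lost its call in 9 of 13 other settings. Of 31 IDs of nuclear respiratory chain genes 3 were called higher and none lower, of 36 ribosomal protein genes 2 higher and none lower, and of 15 mitochondrially encoded genes none, with medians of 0.03, 0.04 and -0.08.

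The place of the called genes in the genome was examined because a KO line can carry flanking sequence of another strain. Within 5 Mb of Ticam2, 4 of 30 genes tested were called (13.3%), all lower, and within 20 Mb 22 of 207 (10.6%), against 13.4% over all genes. The 4 were Tmed7, Eif1a (-0.26 ± 0.06), Eif3j2 (-0.34 ± 0.09) and Tnfaip8 (-0.31 ± 0.05), besides Ticam2 itself. No gene other than Ticam2 within 5 Mb was called at 2-fold or more. Over the autosomes, the share called ran from 10.9% on chromosome 18 to 17.5% on chromosome 19. A cluster of low IDs lay elsewhere, at the distal end of the X chromosome and in the matching end of Y. In KO cells Gm47283 stood at 9.76, 11.6 and 12.7 CPM, and in WT cells at 47.02, 45.2 and 45.05 CPM. Gm21887 had 3.79, 5.23 and 4.69 CPM in KO cells, against 19.7, 19.6 and 18.9 CPM in WT cells. The log2 fold changes were -2.01 ± 0.08 for Gm47283 (annotated on Y) and -2.08 ± 0.11 for Gm21887 (on X), with G530011O06Rik at -2.15 ± 0.18, Gm21860 at -3.26 ± 0.30 and Mid1, a ubiquitin ligase, at -1.77 ± 0.40. These IDs share sequence at a region known to vary in copy between mouse lines, so how reads were split among them is uncertain. Some of their levels also differed with LPS in WT cells. G530011O06Rik averaged 5.17 CPM in untreated WT and 60.5 CPM in WT cells with LPS at 6 h, and 1.15 and 0.995 CPM in KO cells. Gm21860 averaged 2.85 and 21.8 CPM in WT, and Mid1 0.993 and 3.17 CPM. Gm47283 (45.8 and 50.8 CPM) and Gm21887 (19.4 and 20.7 CPM) differed little in WT. The cause of the cluster was not tested. Ddx3y and Eif2s3y, genes of the unshared part of Y, had 0 counts in all 6 libraries, and Xist, expressed in females, was at 263 to 272 CPM in KO and 272 to 313 CPM in WT libraries, so the groups did not differ in sex.

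Set beside the treated conditions, the resting difference was mostly found again at 6 h and mostly not at 2 h. At 2 h, calls in the opposite direction outnumbered those in the same direction. KO and WT libraries of each treated condition are other libraries than the untreated ones, so these comparisons share no library with the resting one. The labels name 3 animals of each genotype, so cells of the same animals may stand behind several conditions, and the comparisons may not be independent over animals. Of the 2032 resting calls, 1477 (72.7%) were called in the same direction with LPS at 6 h and 1499 (73.8%) with LTA. They were 15.4% of the calls with LPS and 17.0% of those with LTA. Of all genes tested, 63.3% (LPS) and 58.5% (LTA) were called at 6 h in either direction. By direction, 32.7% and 30.5% were called higher and 30.6% and 28% lower. At 2 h, 223 (10.97%) of the resting calls were called in the same direction with LPS and 171 (8.42%) with LTA. These were 9.02% and 8.67% of the calls of those conditions. Of all genes tested, 16.4% and 13% were called at 2 h in either direction. By direction, 9.11% and 7.83% were called higher and 7.24% and 5.21% lower. Of the 2032, 570 were called in the opposite direction with LPS at 2 h and 500 with LTA at 2 h. At 6 h, 285 were with LPS and 217 with LTA.

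The 2 h libraries are another library set with 1334784 to 2658329 counts each, and they differ from the rest in other ways. Hbb-bs, a red-cell globin gene, had 0 counts in all 12 of them, and averaged 1945 CPM in untreated KO and 2088 CPM in untreated WT libraries. Alb, the albumin gene, had 0 counts in every untreated and 6 h library. At 2 h it averaged 54.2 CPM in KO and 41.1 CPM in WT with LPS, and 48.0 and 51.7 CPM with LTA. Ticam2 was less depleted there, at 3.16 ± 2.21 CPM in KO and 11.4 ± 1.83 CPM in WT cells with LPS (SD, n = 3 each). Nnt, summed over its IDs, did not separate the genotypes at 2 h: with LPS it had 17.7, 20.02 and 20.5 CPM in KO and 17.2, 19.3 and 22.5 CPM in WT cells, and with LTA 22.1, 16.2 and 15.6 CPM in KO and 14.6, 19.1 and 21.6 CPM in WT cells. At 6 h it did, with 18.03, 18.16 and 18.31 CPM in KO and 9.16, 9.14 and 7.67 CPM in WT cells with LPS. Rab4a likewise was at 0.43 ± 0.30 and 0.25 ± 0.31 (log2, not called) with LPS and LTA at 2 h, and at 3.66 and 3.05 at 6 h. Whether the animals or lines behind the 2 h libraries differ from those behind the others was not tested.

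Of the 124 resting calls at 2-fold or more, 11 were called in the same direction in all 4 treated conditions. Besides Ticam2, they were Wdfy1, which was higher throughout, and the lower genes H2-Aa, H2-Ab1, H2-Eb1, Fos, Nr4a1, Gdf3, Dusp5, Gm47283 and 1 ID without a symbol in the annotation used. Gdf3 was at -1.87 ± 0.06 at rest, -1.48 ± 0.13 and -1.31 ± 0.13 with LPS and LTA at 2 h, and -1.61 ± 0.07 and -1.52 ± 0.07 with them at 6 h (log2). H2-Ab1 was at -1.24 ± 0.05 at rest, -0.59 ± 0.07 and -0.59 ± 0.07 with LPS and LTA at 2 h, and -1.42 ± 0.05 and -1.84 ± 0.05 with them at 6 h (log2). Wdfy1 was at 2.07 ± 0.08 at rest, 0.92 ± 0.17 and 0.75 ± 0.16 with LPS and LTA at 2 h, and 1.68 ± 0.08 and 2.105 ± 0.09 with them at 6 h (log2). Inflammatory lists were split at 2 h. The cytokine list had 5 higher and 7 lower of 25 in KO cells with LPS and 8 higher and 5 lower with LTA, and the IRF3 targets had none higher and 12 lower of 14 with LPS and 1 higher and 5 lower with LTA. The NF-kB list had 17 higher and 5 lower of 26 in KO cells with either ligand at 2 h. In those conditions 9.11% (LPS) and 7.83% (LTA) of all genes were called higher and 7.24% and 5.21% lower. The antimicrobial list had 18 higher and 1 lower of 30 with each ligand. At 6 h the antimicrobial list had 2 higher and 26 lower with LPS and none higher and 28 lower with LTA, where 32.7% (LPS) and 30.5% (LTA) of all genes were called higher and 30.6% and 28% lower. Acod1 was at -1.45 ± 0.05 at rest, 0.63 ± 0.04 and 0.75 ± 0.04 with LPS and LTA at 2 h, and -2.20 ± 0.04 and -1.98 ± 0.04 with them at 6 h (log2). The mitosis list, 24 of 25 higher at rest, had none higher at 2 h, with 6 lower with LPS and 2 lower with LTA. At 6 h it had 24 higher with each ligand, none lower with LPS and 1 lower with LTA. Kif20a was at 0.55 ± 0.06 at rest, -0.20 ± 0.22 and -0.28 ± 0.20 with LPS and LTA at 2 h, and 2.23 ± 0.11 and 1.45 ± 0.09 with them at 6 h (log2). In each of these sentences the values are those of separate comparisons, given side by side.

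**Figure D4:**
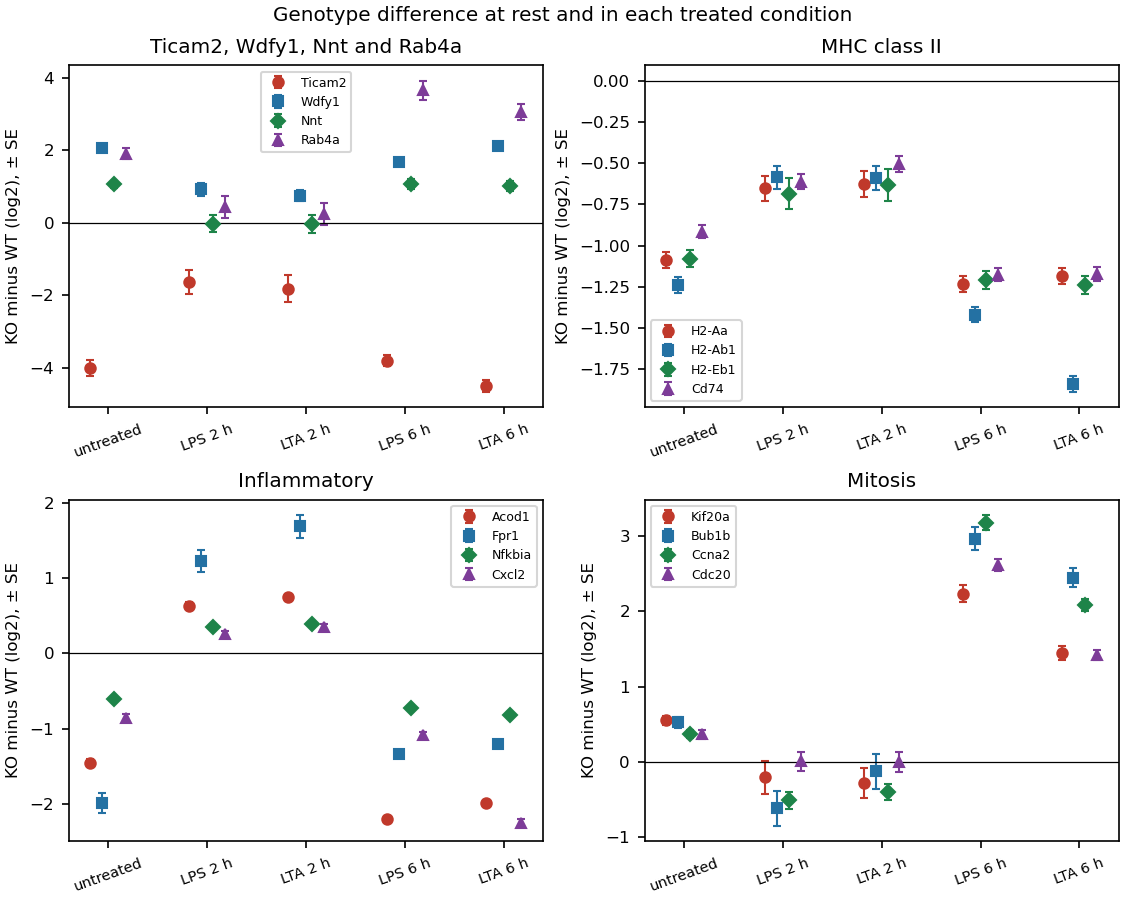
KO minus WT difference (log2 fold change, with its SE as bars) of 16 genes in untreated cells and after LPS or LTA for 2 or 6 h. Ticam2 and the class II genes lie below 0 and Wdfy1 above 0 in all 5 conditions, Nnt (the ID with the lower accession) lies at 0 at 2 h, and Acod1, Fpr1, Nfkbia and Cxcl2 lie below 0 at rest and at 6 h but above it at 2 h.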

How the data were processed

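RNA from untreated bone marrow-derived macrophages of 3 Ticam2-/- and 3 WT mice was sequenced, with the 24 libraries of the treated conditions in the same table. Per the submitters' processing notes, reads were handled with fastp 0.24.0, STAR 2.7.11, SAMtools 1.22.1 and featureCounts of Subread 2.1.1 on GRCm38 (mm10). The deposited values are expected counts per Ensembl gene ID, unnormalized, of which 25.2% of those above 0 are not whole. They were rounded to whole numbers. The sources used here do not give the strand setting of the counting. GENCODE M21 named 26304 of 32361 IDs.

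Genes passed edgeR 4.0.16's filterByExpr (minimum count 10, minimum total 15). TMM factors and a quasi-likelihood fit over all 30 libraries with 1 coefficient per group left 20 residual degrees of freedom. P-values were adjusted by Benjamini-Hochberg over 15119 genes, and the threshold was 0.05. The script was tested on simulated data in which every gene had the same spread between libraries, and there 3.88% of calls were false. Intervals of levels are SDs between libraries, which include counting noise.

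The members of the 40 gene lists (812 genes) and the comparisons were chosen with earlier results of these data known, and no list carries a test. The genes named are Ticam2, Tmed7, the tested members of the TLR4 and substrain lists, up to 4 called members with the smallest p of each other list, the 15 largest rises and 15 largest falls with mean log2 CPM of at least 2, no overlap between the groups and a symbol that is not provisional (so without IDs with no symbol or names such as Gm and Rik), genes called in all 5 conditions, and called genes near Ticam2; other names were chosen after their values were seen. A few genes of these lists are not reported here by name. Motifs were searched on both strands of RefSeq promoter windows matched by symbol (9794 of 15095 genes with a single ID). Alternatives were DESeq2 1.42.0, other scaling, no filter, other sets of libraries, a replicate block and leaving out each library (R 4.3.3).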

Additional observations from a re-analysis of the deposited data

Results flagged for a closer look

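The KO minus WT difference at rest was set against that in each treated condition by an interaction term in edgeR's quasi-likelihood fit (Benjamini-Hochberg adjusted p under 0.05). These tests share the untreated libraries that chose the genes, and the 2 h conditions also compare library sets. Of the 124 resting calls at 2-fold or more, the difference changed for 48 with LPS at 2 h, 40 with LTA at 2 h, 64 with LPS at 6 h and 57 with LTA at 6 h.

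Some of the genes with the largest resting differences were called in the opposite direction after treatment. Values here are the treated difference minus the resting one (log2). With LPS and LTA at 2 h, Fpr1 gave 3.21 and 3.67, Mmp14 3.10 and 2.81, Slc7a11 2.66 and 2.61, and Acod1 2.08 and 2.20, all lower in KO cells at rest and higher at 2 h. Id1 gave 2.21 and Flrt3 1.67 with LPS at 2 h. In the other direction, higher at rest and lower at 2 h, Fam214a gave -4.21 and -2.68, Ighm -2.53 and -3.13, and Slc40a1, ferroportin, -2.11 and -1.48. At 6 h, Smad6, lower at rest, gave 2.39 with LPS and 1.54 with LTA, and Ide gave 0.79 and 0.78.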

How the results depend on the processing

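None of the 168 named genes reversed direction in any of the 13 other settings that gave it a value. Against 2032 genes called, the settings gave 1963 (DESeq2), 1821 (no filter on low counts), 2042 (relative log expression factors), 2006 (total counts alone), 2443 (the 6 untreated libraries alone) and 2070 (without the 2 h libraries); leaving out 1 library gave 1550 to 1633. Calls at 2-fold or more ran from 84 (DESeq2) to 143 (no filter). With total counts alone the balance turned, and more genes were called higher than lower, 1053 against 953, in place of 902 against 1130. Of 168 named genes, 12 at most lost their call in a setting, Cd40, Rpl32 and Dnajc3 in the most settings. No pairing of the samples by replicate number was seen in these values. Deviations of same-numbered KO and WT libraries correlated at -0.02, -0.01 and -0.01, and those of unlike number at -0.04 to 0.05. With the replicate block 2120 genes were called, 2026 of them among the 2032. Of co-stimulatory genes, 1 to 4 stayed called lower. Depth limits genes under 1 CPM, and Cxcl5 and Timd4 have 0 to 4 counts a library. Multi-copy IDs, overlapping genes and the unknown strain of the KO allele limit what single differences can be tied to.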

Other observations

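Several genes outside the lists were called at 2-fold or more and were chosen here after their values were seen. Gpr84, a receptor for medium-chain fatty acids, had 16.9, 18.6 and 16.1 CPM in KO and 38.2, 39.0 and 39.4 CPM in WT libraries, a log2 fold change of -1.18 ± 0.07 (SE). Cav1, the coat protein of caveolae, had 15.002, 14.6 and 13.1 CPM in KO and 30.9, 34.3 and 31.4 CPM in WT libraries, also at -1.18 ± 0.07. Fgr, a Src-family kinase of myeloid cells, was at -1.215 ± 0.12, Klra2, a receptor of the Ly49 family with close copies, at -1.09 ± 0.13, and Phlda1, a gene induced by growth signals, at -1.11 ± 0.13. The 3 KO libraries lay below the 3 WT libraries in all 5 genes.

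Some called genes lie near each other in the genome. Lpar2, a receptor for lysophosphatidic acid (chr8:69822429-69831102), and Pbx4, a homeobox factor (chr8:69832491-69872292), follow each other on the plus strand and were both higher in KO cells. Lpar2 had 1.61, 3.33 and 2.699 CPM in KO and 1.14, 0.84 and 0.58 CPM in WT libraries, and Pbx4 had 2.82, 2.45 and 3.05 CPM in KO and 1.36, 0.77 and 1.16 CPM in WT libraries. Their log2 fold changes were 1.54 ± 0.28 and 1.33 ± 0.26 at rest. Tmem267 (chr13:119488039-119611059, plus strand) lies near Nnt (chr13:119335448-119408997, minus strand) but does not abut it. Tmem267 went the other way from Nnt, with 3.39, 2.69 and 3.76 CPM in KO and 6.42, 6.28 and 7.48 CPM in WT libraries. Its log2 fold change was -1.02 ± 0.15. Whether reads run from Lpar2 into Pbx4 was not tested.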
